A study of Mus musculus with 9 samples.

Results

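The integrin and laminin genes of mouse pancreatic stellate cells are described here across 3 culture conditions. Stellate cells are fibroblast-like cells of the pancreas that make much of the matrix of pancreatic tumours. The genes were taken by symbol. They were every row of the count table that named an integrin alpha or beta chain or a laminin alpha, beta or gamma chain, without the binding proteins Itgb1bp1, Itgb1bp2, Itgb1bp3 and Itgb3bp and the integrin-like gene Itgbl1. The rule found 36 of 17156 genes, 25 integrin and 11 laminin genes. Of these 29 passed the filter on low counts, 21 integrin and 8 laminin genes, among 13613 genes tested.

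All cells were wild-type stellate cell lines of C57BL/6J mice, kept for 4 days in 1 of 3 media. The control group, MG-CM, had DMEM with FBS per the culture protocol, while its sample labels speak of medium conditioned by Matrigel or control medium. The group CM had medium conditioned by tumour organoids. The group CM-JAKi had CM with 500 nM AZD1480, an inhibitor of JAK kinases. Each group had 3 libraries of total RNA depleted of ribosomal RNA. Replicate 1 was the line PSC4, replicates 2 and 3 were the cultures PSC5-I and PSC5-II, and each replicate number had its own source of conditioned medium, so line and medium source change together. The genotype of the organoids, the vehicle of the inhibitor and its effect in control medium were not given or not analysed here.

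Laminins are cross-shaped trimers of an alpha, a beta and a gamma chain that polymerise into the sheet of a basement membrane. Integrins are pairs of an alpha and a beta chain in the cell membrane that bind laminins, collagens or proteins with an RGD peptide, such as fibronectin, and join them to the actin cytoskeleton through talin and vinculin. The alpha chain largely sets the ligand, and the beta 1 chain, encoded by Itgb1, pairs with most alpha chains. Stellate cells and other fibroblasts use these receptors to pull on the matrix, and some of them release TGF-beta from its latent form.

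The libraries held 25625806 to 32466018 counts, of which the 36 genes took 0.279% to 0.352%, and a count was found for 15678 to 15944 genes in each. All 13 stellate and fibroblast markers passed the filter, with a summed level of 6535 to 7187 CPM in MG-CM, 6260 to 9351 in CM and 6552 to 7494 in CM-JAKi, where CPM are counts scaled to the TMM-adjusted library total. The summed leukocyte markers ranged over 24.9 to 38.2, 36.2 to 119 and 19.3 to 35.9 CPM in the 3 groups, in the same order, most of it Cd14, and Ptprc and Cd3e did not exceed 0.0389 CPM in any library. Epithelial markers summed to 34.5 to 49.4, 34.6 to 37.2 and 28.6 to 45.2 CPM, with Epcam at 0.180 or less and Cdh1 at 0.209 or less. Of the same list, Sox9, Muc1 and Krt19 reached 26.1, 16.5 and 25.1 CPM in their highest library. Endothelial markers summed to 5.46 to 6.59, 2.69 to 3.55 and 8.28 to 16.2 CPM, platelet markers to 5.61 to 6.65, 4.46 to 6.22 and 6.19 to 7.20, and Schwann cell markers to 6.29 to 7.24, 4.59 to 4.95 and 5.92 to 7.31. Pecam1 and Cdh5 did not exceed 0.527 and 0.521 CPM. Stellate markers moved both ways. Dcn was called higher and Vim and S100a4 lower in CM than in MG-CM. With the inhibitor Col1a1, Col1a2 and S100a4 were called higher and Dcn and Fbln2 lower. That is 23.1% and 38.5% of the list, against 10.2% and 19.0% of all genes. Dcn was at 512, 262 and 352 CPM in MG-CM, against 4610, 1197 and 2348 in CM. Acta2 was at 265, 610 and 664, against 8.73, 103 and 103, without a call. Of the leukocyte and epithelial markers, Cd14 and Muc1 were called lower with the inhibitor. The endothelial genes Tek and Emcn were called lower in CM than in MG-CM and higher in CM-JAKi than in CM, and Emcn was at 0.926, 0.914 and 0.531 CPM in MG-CM, against 0, 0 and 0.0328 in CM and, with the inhibitor, 6.31, 12.8 and 3.52. The part of these markers in the results was not tested. In bulk RNA, fewer cells of a type and less RNA per cell cannot be told apart.

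Medium conditioned by tumour organoids came with more RNA of Itga5, Itga7 and Itgb7 and less of Itga1 and Lama2 than control medium. These were the 5 of 29 tested genes, 3 higher and 2 lower, with an adjusted p under 0.05 by the quasi-likelihood F-test of edgeR, the threshold for every call here. That is 17.2%, against 10.2% of all genes tested, 4.85% higher and 5.39% lower. The main fit leaves out the replicate number, by which the libraries are paired. The replicate block, a fit with the replicate number as a term, called 12 of the 29 genes, 9 higher and 3 lower, and 24.4% of all genes. Without adjustment, 14 had a p under 0.05, a count for which no share of all genes was taken. The CPM of 13 genes did not overlap between the 3 CM and the 3 MG-CM libraries, 8 higher and 5 lower, where 32.7% of all genes did not overlap. The median log2 change of the 29 genes was 0.06, against 0.01 over all genes, and their median absolute change was 0.65, against 0.21. Leaving out MG-CM replicate 2 gave a count of 0, where 0.949% of all genes were called. Leaving out MG-CM replicate 1 gave 1 (5.62% of all genes), and each other single omission in these groups gave 3 (4.98% to 7.45%).

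With the JAK inhibitor in CM, RNA of Itga1, Itga2b, Itga8, Itga11, Lama2 and Lama3 was higher and that of Itga5, Itga6 and Itgb7 lower than in CM alone. These 9 of 29 genes, 6 higher and 3 lower, are 31.0%, against 19.0% of all genes tested, 10.1% higher and 8.93% lower. The replicate block called 14, 8 higher and 6 lower, and 34.2% of all genes. At an unadjusted p under 0.05 there were 13, again without a share of all genes to set beside it. In 11 genes, 6 higher and 5 lower, the ranges of the groups did not overlap, where 38.3% of all genes did not. The median log2 change was 0.08, against 0.01 over all genes, and the median absolute change 0.46, against 0.25. Without CM replicate 1 the count was 5 (11% of all genes) and without CM-JAKi replicate 2 it was 4 (7.20%), while the other single omissions gave 6 to 8 (11% to 16.8%). Itga5, Itga6, Itga8 and Lama2 were called without each of the 6 libraries in turn. Each gene called in either comparison had ranges without overlap. Its same-numbered pairs could therefore only move in the direction of the call, and add nothing to it.

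The comparisons share the CM libraries, so a CM library that lies high or low moves them in opposite directions, and their values are given side by side without a test of their relation. With library size alone in place of TMM, all genes split into 495 higher and 887 lower calls in CM and 1853 higher and 865 lower with the inhibitor, against 660 and 734 and 1369 and 1216 with TMM. The calls of the integrin and laminin genes under that scaling were 2 higher and 2 lower in CM and 6 higher and 3 lower with the inhibitor.

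**Figure D1:**
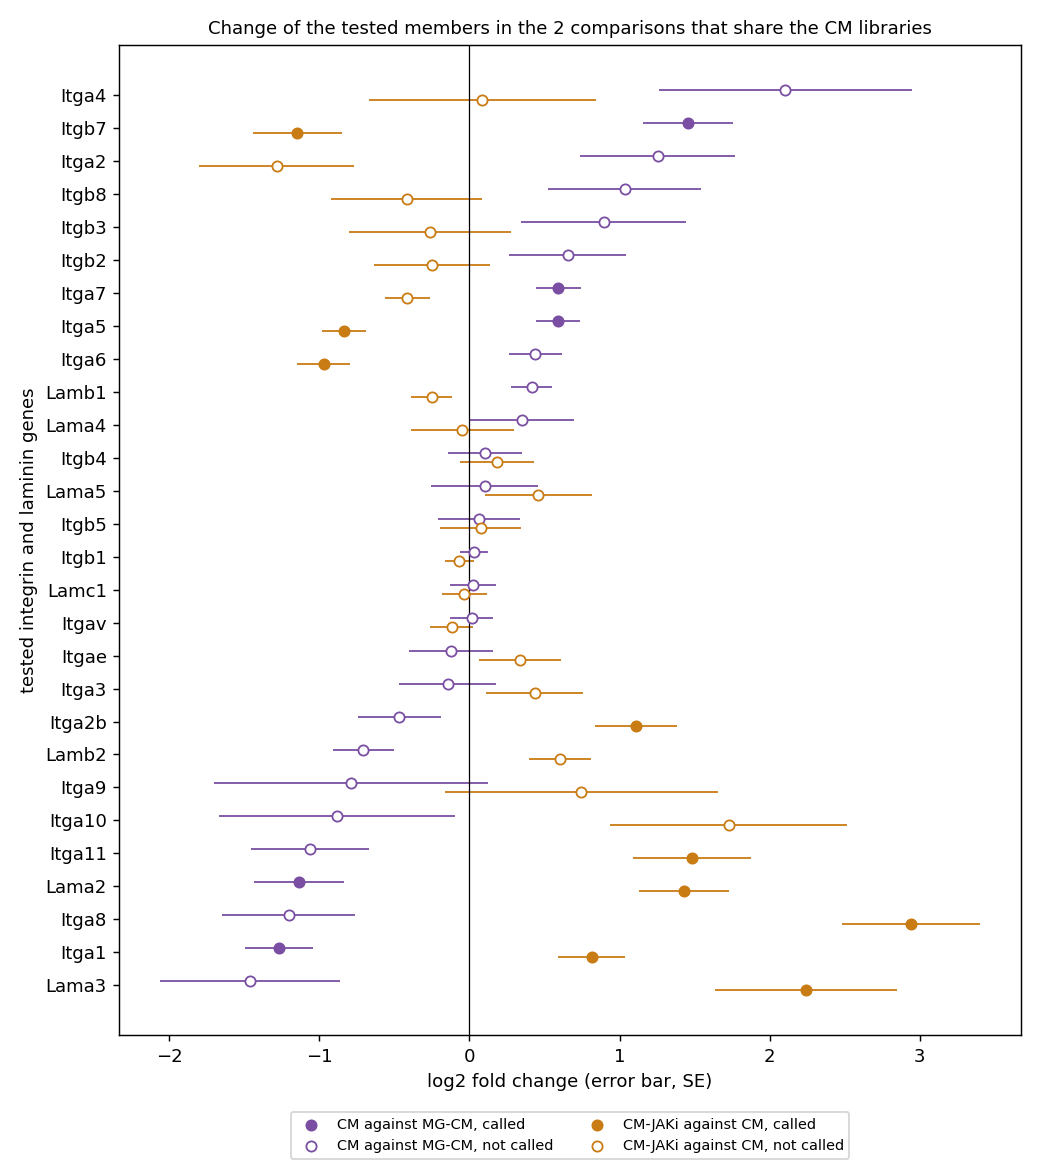
Log2 fold change with its standard error (horizontal axis) of 28 of the 29 tested integrin and laminin genes, ordered by the change in CM against MG-CM (purple) and with the change in CM-JAKi against CM in orange; filled points were called at an adjusted p under 0.05. The 5 filled purple points are Itgb7, Itga7, Itga5, Lama2 and Itga1, the 9 filled orange points reach from -1.15 for Itgb7 to 2.94 for Itga8, and since both comparisons use the CM libraries the points of a gene are not independent.

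The promoters of Itga5, Itgb7, Itga1 and Lama2 are shown because these genes were called in CM against MG-CM and in CM-JAKi against CM, Itga5 and Itgb7 with their highest levels in CM and Itga1 and Lama2 with their lowest. A stretch of the Lamb2 promoter is shown because it holds the letters TTCNNNGAA, the spacing of a STAT binding site. Lamb2 was not called by the main fit in any comparison, and the windows shown for Itga5, Itgb7, Itga1 and Lama2 do not hold these letters. Sequences are from RefSeq on GRCm38.p6, 5′ to 3′ on the strand of the gene, and run over the 250 bases before the annotated start, without the last bases for Itgb7 that lie in an annotated exon and from base -233 to base -175 for Lamb2. Bases just after the start were found in a GENCODE M21 transcript for Itgb7, Itga1, Lama2 and Lamb2, but not for Itga5. Capitals mark matches of 6 motifs searched on both strands. Itga5, Itgb7, Itga1 and Lama2 lie on the minus strand at chr15:103366792-103367041, chr15:102231946-102232185, chr13:115101965-115102214 and chr10:27616943-27617192, and the Lamb2 stretch on the plus strand at chr9:108479629-108479687.
Itga5: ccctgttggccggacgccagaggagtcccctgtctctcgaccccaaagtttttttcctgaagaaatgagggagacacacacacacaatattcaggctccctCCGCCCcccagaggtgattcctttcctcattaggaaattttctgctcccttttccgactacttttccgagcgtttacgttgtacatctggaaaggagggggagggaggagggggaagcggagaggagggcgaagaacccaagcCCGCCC
Itgb7: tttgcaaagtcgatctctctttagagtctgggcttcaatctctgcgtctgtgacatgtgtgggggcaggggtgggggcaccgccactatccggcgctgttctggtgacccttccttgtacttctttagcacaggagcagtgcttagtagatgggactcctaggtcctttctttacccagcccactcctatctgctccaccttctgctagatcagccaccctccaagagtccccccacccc
Itga1: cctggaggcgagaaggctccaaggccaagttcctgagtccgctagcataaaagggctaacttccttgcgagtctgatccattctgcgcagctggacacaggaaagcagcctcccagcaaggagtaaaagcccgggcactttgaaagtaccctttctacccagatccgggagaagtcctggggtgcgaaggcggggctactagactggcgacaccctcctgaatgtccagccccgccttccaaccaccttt
Lama2: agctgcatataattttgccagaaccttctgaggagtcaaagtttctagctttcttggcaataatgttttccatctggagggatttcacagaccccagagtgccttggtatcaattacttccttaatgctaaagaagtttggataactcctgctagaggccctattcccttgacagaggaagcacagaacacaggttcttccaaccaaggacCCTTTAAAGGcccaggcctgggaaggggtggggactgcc
Lamb2: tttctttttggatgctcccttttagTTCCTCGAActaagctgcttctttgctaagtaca

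The promoter table held 23 of the 36 genes, in 26 windows. The capitals in Itga5 are GGGCGG on the opposite strand, the core of an Sp1 site, which 9 of the 26 windows and 32.7% of all 32851 promoter windows of that length hold. Those in Lama2 are a CArG box, the site of serum response factor, found in 2 of the windows (Itgb6 and Lama2) and in 1.47% of all. Those in Lamb2 match TTCNNNGAA, found in 2 (Itga10 and Lamb2) and in 7.02% of all. Of the other motifs, the AP-1 letters TGANTCA were in 1 of the windows and 6.75% of all, a pair of the GAAA letters of interferon-response sites with a gap of 2 in 2 and 2.98%, and the TEAD letters GGAATG in 3 and 12.6%. The windows of Itgb7 and Itga1 held no match. The motifs were chosen with the values known, a match is letters only, and in the stretches printed no matches of different motifs overlap.

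Itgb1 was the most abundant of the 36 genes per length. Its level was 259 ± 6.28 CPM per kilobase of exon in MG-CM, 265 ± 11.9 in CM and 253 ± 12.5 in CM-JAKi (SD, n = 3), with exon lengths from GENCODE M21. In CPM the 3 libraries stood at 977, 971 and 1015 in MG-CM, against 1039, 958 and 1035 in CM and, with the inhibitor, 1020, 941 and 934. The groups overlapped, and no call was made (log2 change 0.03 ± 0.09 in CM, adjusted p = 0.859, and -0.07 ± 0.09 with the inhibitor, edgeR). With library size alone the signs turned, to -0.04 and 0.03.

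Itga1, Itga2, Itga10 and Itga11 encode the alpha chains that bind collagens with Itgb1. Itga1, which favours the collagen of basement membranes, was at 92.8, 60.9 and 59.8 CPM in MG-CM replicates 1, 2 and 3, at 27.2, 25.3 and 36.3 in CM and at 65.0, 45.7 and 45.2 in CM-JAKi. The CM libraries lay below all others. Itga1 fell by 1.27 ± 0.23 on the log2 scale in CM (adjusted p = 0.0157) and rose by 0.81 ± 0.23 with the inhibitor (0.0378). Without MG-CM replicate 2 the log2 change in CM was -1.37 and missed the call (0.0525). The change with the inhibitor was 0.62 to 0.98 without each library in turn. Its call was met without CM replicate 3 and missed without CM replicates 1 or 2 (0.113 and 0.105) or CM-JAKi replicates 1, 2 or 3 (0.0919, 0.0749 and 0.0578).

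Itga11, a receptor for fibrillar collagen on fibroblasts, was at 6.28, 5.11 and 4.32 CPM in MG-CM, against 1.49, 3.28 and 2.72 in CM and, with the inhibitor, 7.94, 9.42 and 3.64. The change of Itga11 in CM against MG-CM was not called (log2 change -1.06 ± 0.39, adjusted p = 0.117, edgeR). Itga11 rose with the inhibitor by 1.48 ± 0.39 (adjusted p = 0.0320), and all 3 CM-JAKi libraries lay above CM, replicate 3 by the least. The log2 change was 1.203 to 1.79 over the omissions of single libraries, and the call was lost without CM replicates 1 or 3 (0.0883 and 0.0667) or CM-JAKi replicates 1 or 2 (0.0669 and 0.120). Itga2, the collagen receptor also found on platelets and epithelium, had the opposite order, with 3.81, 1.89 and 3.03 CPM in MG-CM, against 11.8, 4.43 and 4.59 in CM and, with the inhibitor, 4.77, 1.86 and 1.90. CM replicate 1 was far above the rest. Itga2 was called with the replicate block and with the cell line term, not in the fit without them (log2 change 1.25 ± 0.52 in CM, adjusted p = 0.152, 0.0119 with the block, and -1.28 ± 0.52 with the inhibitor, 0.115 and 0.00545 with the block).

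Itga10, a cartilage collagen receptor, was at 5.45, 1.62 and 1.82 CPM in MG-CM, against 2.09, 1.80 and 0.951 in CM and, with the inhibitor, 11.8, 2.69 and 1.51. Its high values were in the PSC4 replicate. With the inhibitor its log2 change was 1.73 ± 0.79 (adjusted p = 0.159, 0.0478 with the block). Per kilobase of exon, Itga1 made up 76.2% ± 1.47 of the 4 collagen-binding chains in MG-CM, 60.0% ± 9.84 in CM and 64.4% ± 10.4 in CM-JAKi, and Itga2 made up 4.81% ± 1.14, 21.3% ± 11.3 and 5.03% ± 1.29 (SD, n = 3). These shares were chosen with the values known and were not tested.

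**Figure D2:**
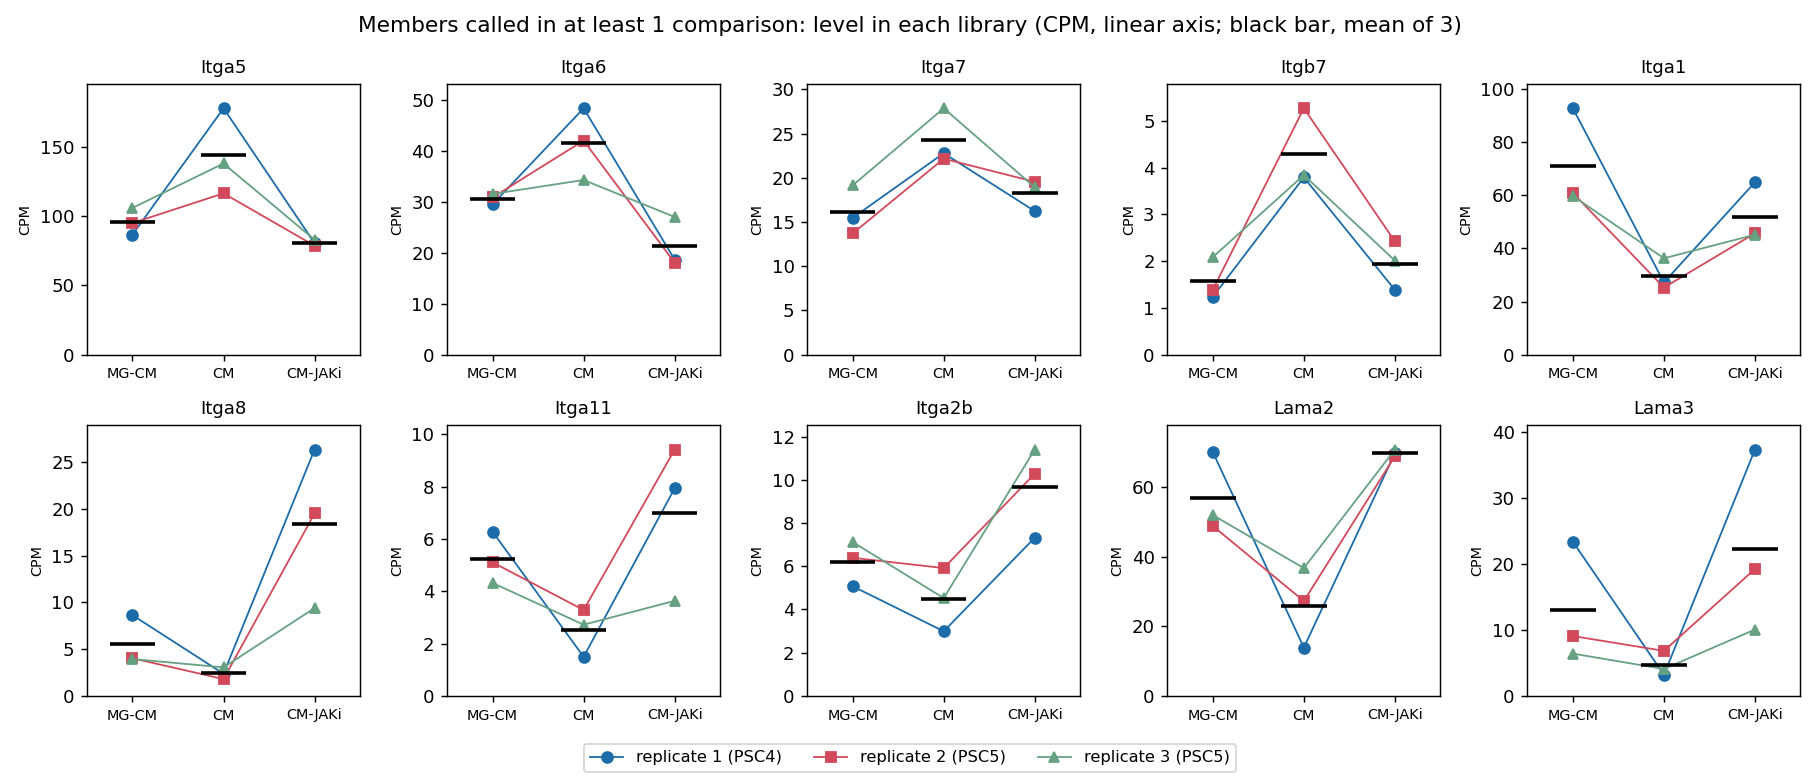
CPM (linear vertical axes from 0) of the 10 genes called in CM against MG-CM or in CM-JAKi against CM, in each library; points joined by a line share a replicate number, and black bars are means of 3. By group mean, Itga5, Itga6, Itga7 and Itgb7 peak in CM, at 144, 41.6, 24.3 and 4.30 CPM, and Itga1, Itga8, Itga11, Itga2b, Lama2 and Lama3 are lowest there. In CM against MG-CM, Itga6, Itga8, Itga11, Itga2b and Lama3 were not called, and the groups overlap for Itga2b and Lama3. Itga7 was not called with the inhibitor.

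Itga3, Itga6 and Itga7 encode the laminin-binding alpha chains. Itga6 was at 29.6, 30.9 and 31.6 CPM in MG-CM, against 48.5, 42.1 and 34.4 in CM and, with the inhibitor, 18.7, 18.1 and 27.1. Each CM library was above every MG-CM library, and each CM-JAKi library below both groups. The change in CM against MG-CM was not called (log2 change 0.44 ± 0.17, adjusted p = 0.138, edgeR). Itga6 fell by 0.97 ± 0.18 with the inhibitor (adjusted p = 0.00816), a call kept without each library in turn (0.00524 to 0.0377).

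Itga7, the laminin receptor of muscle, was at 15.5, 13.7 and 19.1 CPM in MG-CM, against 22.8, 22.2 and 27.9 in CM and, with the inhibitor, 16.2, 19.5 and 18.9. It rose in CM by 0.59 ± 0.15 (adjusted p = 0.0416). Without each library in turn the change was 0.48 to 0.73. The call was kept without MG-CM replicate 3 but lost without MG-CM replicates 1 or 2 (0.0948 and 0.152) or CM replicates 1, 2 or 3 (0.0752, 0.0584 and 0.106). With the inhibitor its log2 change was -0.41 ± 0.15, called with the block and with the cell line term (adjusted p = 0.0870, 0.0279 with the block).

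Itga3 was at 24.5, 23.8 and 39.1 CPM in MG-CM, against 17, 22.0 and 39.996 in CM and, with the inhibitor, 30.9, 32.5 and 43.5. Replicate 3 was the highest in each group. The change with the inhibitor was 0.44 ± 0.32 (adjusted p = 0.374, 0.0267 with the block). Itgb4, the partner of Itga6 in hemidesmosomes, was at 1.47 to 2.54 CPM over the 9 libraries and was not called in any comparison.

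Itga5, Itga8, Itgav and Itga2b encode alpha chains that bind RGD peptides. Itga5, the alpha chain of the main fibronectin receptor, was at 86.5, 94.8 and 106 CPM in MG-CM, against 178, 116 and 138 in CM and, with the inhibitor, 80.3, 78.5 and 82.8. The 3 groups did not overlap, with CM highest and CM-JAKi lowest. Itga5 rose in CM by 0.59 ± 0.15 (adjusted p = 0.0388) and fell with the inhibitor by 0.84 ± 0.15 (0.00747). In CM the log2 change was 0.41 to 0.72 without each library in turn. Its call was kept without CM replicate 2 and missed without MG-CM replicates 1, 2 or 3 (0.0931, 0.130 and 0.0623) or CM replicates 1 or 3 (0.0760 and 0.0682), while the call with the inhibitor was kept without each library (0.00441 to 0.0350).

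Itga8, the nephronectin receptor of smooth muscle and other mesenchymal cells, was at 8.64, 4.03 and 3.94 CPM in MG-CM, against 2.36, 1.80 and 3.05 in CM and, with the inhibitor, 26.4, 19.5 and 9.40. The 3 groups did not overlap, with CM-JAKi highest and CM lowest, but the change in CM against MG-CM was not called (log2 change -1.20 ± 0.44, adjusted p = 0.118, edgeR). Itga8 rose with the inhibitor by 2.94 ± 0.46 (adjusted p = 0.00499), the largest change among the 29 genes in that comparison, and kept the call without each library (0.00430 to 0.0210). Against MG-CM its change in CM-JAKi was 1.74 ± 0.43 (adjusted p = 0.129, 0.0454 with the block and 0.00344 by DESeq2).

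The ratio of Itga5 to Itga8 CPM within a library, which no scaling between libraries can move, was 10.01, 23.6 and 26.8 in MG-CM, against 75.1, 64.7 and 45.2 in CM and, with the inhibitor, 3.04, 4.02 and 8.81. The ratios of the 3 groups did not overlap. This pair was chosen with the values known, so the ratio is a description. The counting of Itga8 reads could include the gene E030013I19Rik on the other strand, which overlaps its exons.

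Itgav, the chain of vitronectin receptors and of integrins that free TGF-beta, was the most abundant RGD-binding alpha chain per length, at 39.1 ± 3.97, 39.5 ± 8.15 and 36.5 ± 1.09 CPM per kilobase (SD, n = 3). In CPM it was at 254, 267 and 308 in MG-CM, against 234, 259 and 344 in CM and, with the inhibitor, 250, 257 and 265, and was not called. Its partner Itgb5 was at 71.8 ± 15.4, 75.1 ± 12.8 and 79.1 ± 31.5 CPM per kilobase (SD, n = 3), the most abundant integrin chain after Itgb1 in each group mean. It had 190 to 390 CPM over the 9 libraries, the 3 highest of them those of replicate 1, and was not called either. Itgb8, another partner and an activator of latent TGF-beta, was at 11.5, 6.70 and 9.28 CPM in MG-CM, against 35.5, 6.63 and 14.2 in CM and, with the inhibitor, 16.4, 13.7 and 11.9, without a call. CM replicate 1 stood above and CM replicate 2 below all MG-CM libraries.

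Itgb3, a further partner of Itgav, was at 8.51, 5.28 and 3.75 CPM in MG-CM, against 16.1, 8.68 and 7.87 in CM and, with the inhibitor, 16.5, 7.12 and 3.52. Within each group replicate 1 was the highest, and CM exceeded MG-CM in each same-numbered pair. It was called in CM with the block (log2 change 0.90 ± 0.55, adjusted p = 0.331, 0.0271 with the block). Itga2b, the platelet fibrinogen receptor chain that pairs with Itgb3, was at 5.08, 6.39 and 7.12 CPM in MG-CM, against 2.99, 5.92 and 4.53 in CM and, with the inhibitor, 7.33, 10.3 and 11.4. CM and MG-CM overlapped for Itga2b, without a call (log2 change -0.47 ± 0.27, adjusted p = 0.308, edgeR). Itga2b rose with the inhibitor by 1.11 ± 0.27 (adjusted p = 0.0257), and the CM-JAKi libraries lay above all others. The log2 change was 0.88 to 1.36 without each library in turn, and the call was lost without CM replicates 1 or 3 (0.0596 and 0.0607) or CM-JAKi replicates 2 or 3 (0.0874 and 0.0779). Of the platelet and megakaryocyte markers, Pf4 and Ppbp did not exceed 0.116 and 0.152 CPM in any library. Gp1ba was at 3.03 to 3.29 CPM in MG-CM, 2.13 to 2.66 in CM and 3.11 to 3.75 with the inhibitor, and Gp1bb at 2.39 to 3.33, 1.80 to 3.55 and 2.78 to 4.00. Neither was called, and their part in the Itga2b result was not tested.

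**Figure D3:**
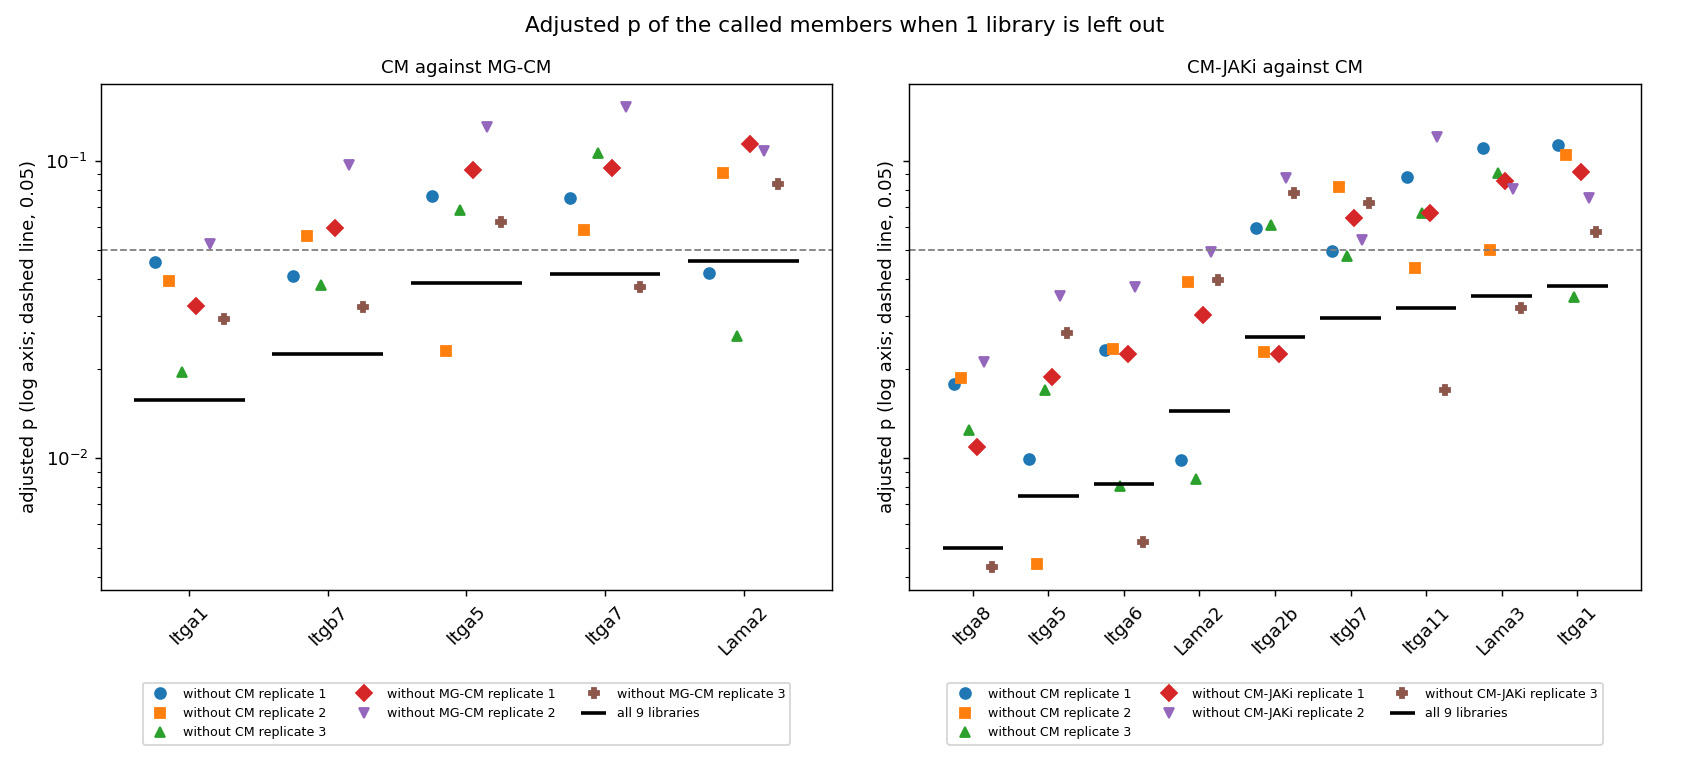
Adjusted p (log vertical axis, dashed line at 0.05) of the genes called in CM against MG-CM (left) and in CM-JAKi against CM (right), with all 9 libraries (black bars) and without 1 library in turn (symbols). In the left panel the points without MG-CM replicate 2 are all above the line, and in the right panel every point of Itga8, Itga5, Itga6 and Lama2 is below it.

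The leukocyte integrins were low. Itgb7, which pairs with Itga4 or Itgae on lymphocytes, was at 1.23, 1.39 and 2.08 CPM in MG-CM, against 3.79, 5.27 and 3.84 in CM and, with the inhibitor, 1.39, 2.42 and 2.01. Every CM library was above every other. Itgb7 rose in CM by 1.45 ± 0.30 (adjusted p = 0.0223) and fell with the inhibitor by 1.15 ± 0.30 (0.0296). Without each library in turn the log2 change in CM was 1.28 to 1.71, and the call was missed without MG-CM replicates 1 or 2 (0.0595 and 0.0969) or CM replicate 2 (0.0557). With the inhibitor it was -1.35 to -0.96, and the call was missed without CM replicate 2 (0.0817) or CM-JAKi replicates 1, 2 or 3 (0.0641, 0.0542 and 0.0721).

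Itga4, which binds fibronectin and the adhesion molecule Vcam1, had 16, 1 and 14 counts in MG-CM, against 59, 40 and 46 in CM and, with the inhibitor, 115, 29 and 17. CM exceeded MG-CM in every library (log2 change 2.10 ± 0.84, adjusted p = 0.143, 0.0406 with the block), and MG-CM replicate 2 rests on a single count. Itgb2, the common beta chain of leukocyte integrins, was at 3.12, 1.45 and 1.63 CPM in MG-CM, against 4.31, 2.97 and 2.49 in CM and, with the inhibitor, 3.91, 1.94 and 2.36 (0.65 ± 0.39 in CM, adjusted p = 0.314, 0.0334 with the block). Its alpha partners had only 0 to 3 counts a library for Itgam and Itgal and 0 to 2 for Itgax, and did not pass the filter. Itgae was at 0.722 to 1.197 CPM and Itga9, a tenascin and osteopontin receptor chain, at 0.295 to 2.13, and neither was called. Itgb6, the epithelial partner of Itgav, had 1 to 6 counts and was not tested.

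Lama2, Lama3, Lama4 and Lama5 were the laminin alpha chains tested. Lama2, the alpha chain of muscle and nerve basement membranes, was at 70.2, 48.9 and 52.1 CPM in MG-CM, against 13.9, 27.3 and 36.8 in CM and, with the inhibitor, 69.8, 69.0 and 70.9. The CM libraries lay below all others, replicate 1 the lowest. Lama2 fell in CM by 1.13 ± 0.30 (adjusted p = 0.0460) and rose with the inhibitor by 1.43 ± 0.30 (0.0144). In CM the log2 change was -1.47 to -0.84 without each library in turn, and its call was missed without MG-CM replicates 1, 2 or 3 (0.114, 0.108 and 0.0836) or CM replicate 2 (0.0913). The call with the inhibitor was kept without each library (0.00854 to 0.0493).

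Lama3, the alpha chain of the laminin of epithelial anchoring, was at 23.4, 9.07 and 6.40 CPM in MG-CM, against 3.20, 6.82 and 4.07 in CM and, with the inhibitor, 37.3, 19.2 and 10.1. CM and MG-CM overlapped for Lama3, without a call (log2 change -1.46 ± 0.60, adjusted p = 0.149, edgeR). Lama3 rose with the inhibitor by 2.24 ± 0.61 (adjusted p = 0.0350), with every CM-JAKi library above every CM library. The log2 change was 1.64 to 2.61 without each library in turn. The call was kept without CM-JAKi replicate 3 and lost without CM replicates 1, 2 or 3 (0.110, 0.05002 and 0.0907) or CM-JAKi replicates 1 or 2 (0.0856 and 0.0807). Krt19, a keratin of the epithelial marker list, was at 3.98, 10.4 and 10.2 CPM in MG-CM, against 0.765, 1.95 and 6.53 in CM and, with the inhibitor, 4.402, 14.003 and 25.1. It was not called, and its part in the Lama3 result was not tested. Exons of Lama2 and Lama3 overlap a gene model on the other strand (Gm48084 for Lama2 and Gm29200 for Lama3), and the strand setting of the counting was not given.

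Lama4, the alpha chain of vascular and mesenchymal laminins, was the most abundant alpha chain per length. It was at 144, 70.1 and 66.5 CPM in MG-CM, against 127, 80.3 and 151 in CM and, with the inhibitor, 111, 88.0 and 147, with overlapping groups and no call. Lama5 was at 94.3, 47.3 and 43.2 CPM in MG-CM, against 50.3, 87.7 and 60.2 in CM and, with the inhibitor, 124, 84.6 and 63.4, also without a call. In replicate 1 its CM level was below MG-CM and in replicates 2 and 3 above it. Lama1, the alpha chain of embryonic basement membranes, had 1 to 6 counts a library and was not tested.

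Of the alpha chain RNA per kilobase, Lama2 made up 22.0% ± 4.28 in MG-CM, 9.19% ± 3.43 in CM and 19.9% ± 2.59 in CM-JAKi. Lama4 made up 54.8% ± 2.33, 68.1% ± 12.1 and 52.4% ± 9.95 (SD, n = 3). The Lama2 shares of the CM libraries, 5.24%, 11.4% and 10.9%, lay below all others, which ranged from 17.3% to 25.6%. The shares were not tested.

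Lamb1 and Lamb2 are the exchangeable beta chains of most laminins. Lamb1 was at 387, 289 and 346 CPM in MG-CM, against 514, 389 and 459 in CM and, with the inhibitor, 387, 362 and 395, so every CM library was above every MG-CM library. Lamb2 went the other way, with 347, 296 and 267 CPM in MG-CM, against 147, 242 and 169 in CM and, with the inhibitor, 339, 268 and 240. In CM against MG-CM both missed the threshold and were called with the block (Lamb1 0.41 ± 0.14, adjusted p = 0.0899, 0.0150 with the block; Lamb2 -0.71 ± 0.20, 0.0608 and 0.0387). With the inhibitor neither gene was called by edgeR (adjusted p = 0.229 for Lamb1 and 0.0704 for Lamb2), nor with the block (0.0664 and 0.0502). The ratio of Lamb1 to Lamb2 CPM was 1.11, 0.975 and 1.30 in MG-CM, against 3.50, 1.60 and 2.72 in CM and, with the inhibitor, 1.14, 1.35 and 1.64. This ratio is a description and was not tested. The CM ratios were all above those of MG-CM, while CM replicate 2 was below CM-JAKi replicate 3.

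Lamc1, the gamma chain of nearly all laminins outside epithelia, was at 368, 268 and 269 CPM in MG-CM, against 286, 317 and 315 in CM and, with the inhibitor, 352, 272 and 273, without a call. In replicate 1 its CM level was below MG-CM and in replicates 2 and 3 above it. Lamb3 had 1 to 6 counts and Lamc3 1 to 13, and neither was tested.

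**Figure D4:**
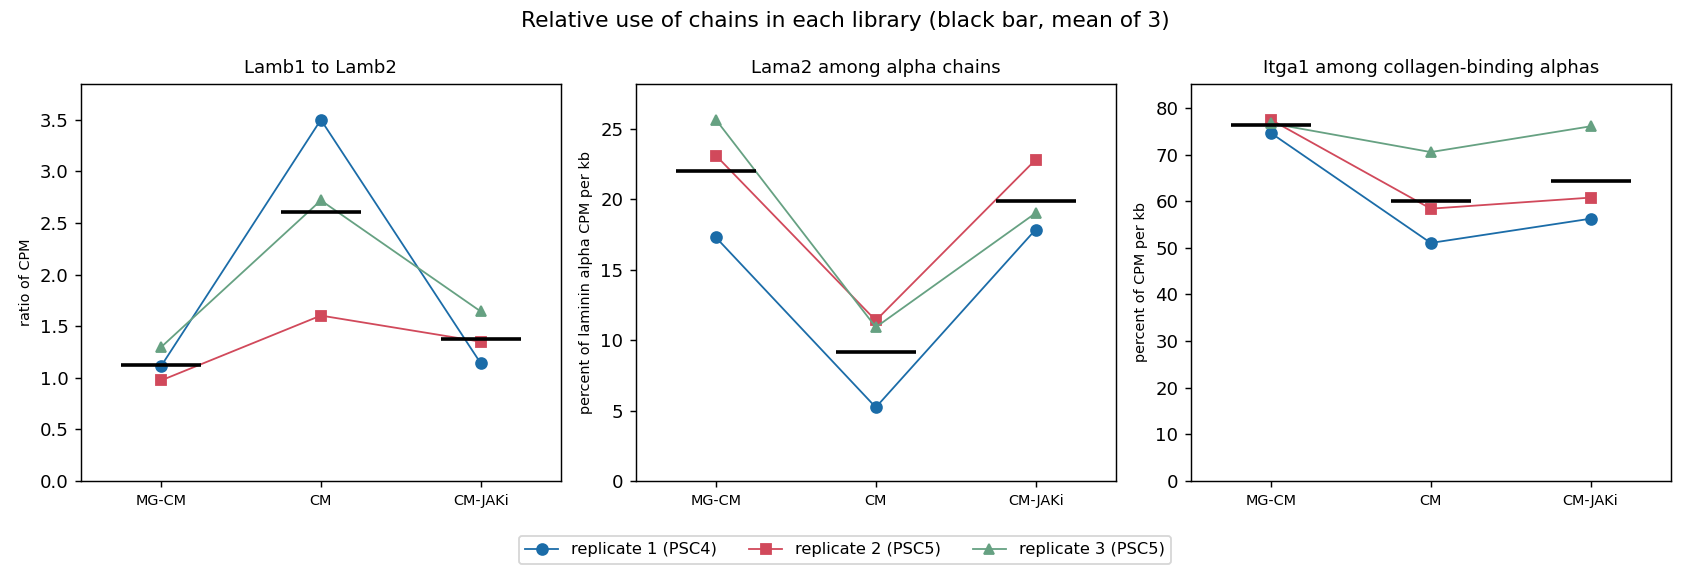
Ratio of Lamb1 to Lamb2 CPM (left), percent of laminin alpha CPM per kilobase held by Lama2 (middle) and percent of collagen-binding alpha CPM per kilobase held by Itga1 (right) in each library, with axes from 0; lines join a replicate number and black bars are means of 3. In CM the ratio is 1.60 to 3.50, against 0.975 to 1.30 in MG-CM, and the Lama2 share is 5.24% to 11.4%, below all other libraries.

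The comparison of CM-JAKi with MG-CM sets cells in CM with the inhibitor beside cells that saw no tumour medium. edgeR called 0 of the 29 genes, where it called 1.01% of all genes. At an unadjusted p under 0.05 there were 4, and no share of all genes was taken at that threshold. DESeq2, the replicate block and the cell line term each called 1, Itga8, which was higher. They called 3.71%, 4.25% and 3.84% of all genes. The ranges of 6 genes did not overlap, where 17.1% of all genes did not: Itga8, Itga2b, Itgb8 and Itga4 were higher and Itga5 and Itga6 lower in all CM-JAKi libraries. The median log2 change was 0.29, against 0.01 over all genes, and the median absolute change 0.29, against 0.13.

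The lines PSC4 and PSC5 could be compared only with 1 PSC4 library a group. The spread in that test comes from the PSC5-I and PSC5-II libraries alone, the PSC4 library is assumed to vary like them, and line cannot be told apart from medium source. For the line by treatment interaction edgeR called 0 integrin or laminin genes in each comparison and 31, 50 and 0 of all genes in CM, with the inhibitor and in CM-JAKi against MG-CM. The integrin or laminin gene with the smallest p of interaction was Lama2 in CM. Its fall there was larger in PSC4 by 1.68 on the log2 scale (an interaction of -1.68).

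Genes that act with the integrins were counted from 3 lists, called here matrix ligands, basement membrane partners and adaptors. The matrix ligands include the cell surface proteins Icam1, Vcam1, Madcam1, Adam9 and Adam15. The adaptors are mostly proteins of integrin adhesions. Their list also holds Cav1, Cd81 and Itgb3bp, which are not links of integrins to actin but are in the counts. Of 42 tested adaptors, 0 rose and 7 fell in CM, and 12 rose and 0 fell with the inhibitor (median log2 changes -0.23 and 0.24). Of all genes, 4.85% were called higher and 5.39% lower in CM, and 10.1% and 8.93% with the inhibitor. Vinculin (Vcl) fell in CM from 234 ± 7.59 to 99.9 ± 32.6 CPM (log2 change -1.23 ± 0.23, adjusted p = 0.0165). Tln2, a talin, fell by 0.87 ± 0.15, the Pinch partner Rsu1 fell by 0.88 ± 0.18 and caveolin 1 (Cav1) fell by 1.45 ± 0.30. Tln2 was at 32.2 ± 3.04 CPM in MG-CM and 17.5 ± 3.14 in CM. The more abundant talin Tln1 was at 663 ± 68.6 and 584 ± 99.5 CPM and was not called. With the inhibitor the tensin Tns1 rose by 0.98 ± 0.21, the tetraspanin Cd81 by 0.85 ± 0.19, Bcar1, a docking protein of focal adhesions, by 0.66 ± 0.16 and Itgb3bp, also a centromere protein, by 1.01 ± 0.18. The adaptor calls in CM were 2 higher and 15 lower with the block, where 24.4% of all genes were called in either direction. They were 3 lower without MG-CM replicate 3 (4.98% of all genes) and 0 without MG-CM replicate 2 (0.949%). Without MG-CM replicate 2, Vcl, Tln2, Rsu1 and Cav1 had adjusted p = 0.0696, 0.0584, 0.0964 and 0.0868 (edgeR). With the inhibitor they were 20 and 1 with the block, 4 and 0 without CM replicate 1, 3 and 0 without CM-JAKi replicate 3, and 1 and 0 without CM-JAKi replicate 2, where Tns1, Cd81 and Bcar1 had 0.0524, 0.0679 and 0.0864. Omitting MG-CM replicate 3 ended the calls of Cav1 and Rsu1 as well (0.0605 and 0.0639), and Cd81 and Bcar1 without CM replicate 1 (0.0545 and 0.0636) or CM-JAKi replicate 3 (0.0530 and 0.0655).

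Of 29 tested matrix ligands 2 rose and 6 fell in CM, and 10 rose and 2 fell with the inhibitor (median log2 changes -0.40 and 0.55), beside the same shares of all genes. Tenascin C (Tnc), a ligand of Itga9 and Itgav integrins, rose in CM from 621 ± 113 to 1980 ± 619 CPM and was at 583 ± 43.0 with the inhibitor (log2 changes 1.67 ± 0.24 and -1.76 ± 0.24, adjusted p = 0.00990 and 0.00286). Col6a2, a chain of the collagen VI that several collagen receptors bind, fell by 1.49 ± 0.23 in CM and rose by 1.95 ± 0.24 with the inhibitor, and Col6a1 fell by 1.32 ± 0.19 and rose by 1.63 ± 0.19. Nov, a matricellular integrin ligand, fell by 3.76 ± 0.54 in CM, and Col1a2 rose by 1.30 ± 0.20 with the inhibitor. Without MG-CM replicate 2 the list had 0 higher and 2 lower calls in CM, and Tnc and Col6a2 had adjusted p = 0.0517 and 0.0536. Without MG-CM replicate 3 it had 1 and 4, and with the block 4 and 10. With the inhibitor the list had 6 higher and 2 lower calls without CM-JAKi replicate 3 and 7 to 13 higher and 1 to 3 lower without each of the other libraries.

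Of 28 tested basement membrane partners 1 rose and 0 fell in CM, and 5 rose and 4 fell with the inhibitor (median log2 changes -0.09 and 0.16). That is 3.57% and 32.1% of the list, against 10.2% and 19.0% of all genes. Agrin (Agrn), a proteoglycan that binds laminin, was at 82.6 ± 18.0 CPM in MG-CM, 153 ± 26.7 in CM and 62.8 ± 3.88 in CM-JAKi. It rose by 0.89 ± 0.17 in CM and fell by 1.28 ± 0.18 with the inhibitor (adjusted p = 0.0197 and 0.00278). Without MG-CM replicates 2 or 3 the log2 change in CM was 0.73 and 0.91 and missed the call (0.0715 and 0.0515). With the inhibitor Fbln2, a fibulin, fell by 0.98 ± 0.13 and the syndecan Sdc1 fell by 1.28 ± 0.28, while Col4a5, a basement membrane collagen chain, rose by 1.60 ± 0.26. Without CM-JAKi replicates 2 or 3 the change of Sdc1 was -1.16 in each case and missed the call (0.0677 and 0.0564). In CM the block called 3 higher and 4 lower, and the list had 0 calls without MG-CM replicate 2 or 3 and 1 higher and 1 lower without CM replicate 1 or 2. With the inhibitor it had 2 higher and 2 lower without CM-JAKi replicate 2 or 3, and 2 higher and 3 lower without CM replicate 1.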

How the data were processed

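Total RNA of 9 libraries was sequenced from strand-specific libraries depleted of ribosomal RNA, per the labels' protocols. The deposited values were read as estimated counts per gene (expected counts rounded to whole numbers by the authors, not scaled), judged from the values and from RSEM being named. Of tools, RSEM 1.2.29, STAR 2.5.1b and DESeq2 are listed in the submitters' processing notes, with the builds NCBIM37 and mm9. Their roles are not given in the sources used here. The strand setting of the counting is likewise not given, so reads of genes that overlap on opposite strands (Itga4, Itga7, Itga8, Itgb4, Lama2, Lama3, Lamc3) cannot be told apart for certain. Gene models also overlap on the same strand at Itga1, Itga10 and Itgam.

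The analysis used edgeR 4.0.16 under R 4.3.3, with limma 3.58.1 loaded by it and DESeq2 1.42.0 as an alternative. Low-count genes were removed by filterByExpr, given the group, with a minimum count of 10 and a minimum total of 15. Libraries were scaled by TMM, and 1 robust quasi-likelihood fit held all 9 libraries and a term for each group. Its F-test gave each comparison, p-values were adjusted by Benjamini and Hochberg's method over every gene kept, and a call needs an adjusted p under 0.05. Standard errors are the log2 change divided by the root of F. Log values used a prior count of 2. The procedure was run on counts simulated without a replicate or line effect, so that run does not show how it deals with paired cultures. Levels per kilobase used the exon lengths of GENCODE M21 on GRCm38, a build other than the named ones, so shares of chains are approximate.

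Libraries of the same replicate number come from the same stellate culture, and their CM, with or without inhibitor, from the same source. Their deviations from the group means had correlations across genes of 0.291 to 0.680 in the 9 pairs of equal number and of -0.536 to 0.279 in the others, so the numbers pair the samples. The block fit is given where it changed a call or moved a count. By their description the replicates are separate cultures. Between libraries of a group the chi-square values per degree of freedom were 13.2 to 93.1, a spread above that of counting alone, whose source they do not show.

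Every gene found by the symbol rule and kept by the filter is named with its values, apart from 1 that is counted but whose values are not reported here. Of the 3 other lists, up to 4 called genes with the smallest p and a mean log2 CPM of at least 2 have their changes given. That rule was applied in each of CM against MG-CM and CM-JAKi against CM. Tln1 is named beside Tln2 with its levels only. The genes and lists were chosen with earlier results of these data known. Alternatives were other filters, scalings and tools, the replicate block, a cell line term, fits of 2 groups, fits without robust estimation, and the omission of each library and each replicate number. For the 3 other lists these were added after seeing the data.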

Additional observations from a re-analysis of the deposited data

How the results depend on the processing

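In CM against MG-CM, where 5 integrin and laminin genes were called, DESeq2 called 10 and the replicate block 12. The cell line term called 12 (23.6% of all genes) and a fit of only the 2 groups 2 (5.94%). Leaving out single libraries or a replicate number without the block gave 0 to 4, and the replicate block without replicate 1, 2 or 3 gave 12, 0 and 7. In CM-JAKi against CM, with 9 called, the replicate block gave 14 (34.2% of all genes) and the omissions without the block 0 to 9 (1.88% to 21.8%). The block without replicate 1, 2 or 3 gave 10, 5 and 10 there (30.8%, 10.5% and 17.3%). In CM-JAKi against MG-CM, with 0 called, DESeq2, the replicate block and the cell line term gave 1 each (3.71%, 4.25% and 3.84% of all genes). The omissions without the block gave 0 (0.00% to 3.42%). The block without replicate 1, 2 or 3 gave 4, 0 and 0 (7.31%, 0.990% and 0.153%). The other settings kept the counts within 1.5 times. All genes moved too: in CM against MG-CM 10.2% were called, 18.5% by DESeq2, 24.4% with the block and 0.0586% to 12.6% over the omissions without it. The cause of these differences was not tested, apart from the fewer libraries of the omissions. Under library size alone Itgb1 reversed, to -0.0402 in CM and 0.0304 with the inhibitor, and the median of all genes moved from 0.0058 to -0.0663 and from 0.0080 to 0.103. No other printed change turned its sign. Over all printed genes and settings, 847 values stayed on their side of the threshold, 151 lost the call and 50 gained it. Of the counts of the 3 other lists, 125 stayed within 1.5 times and 64 did not. The 7 genes with few counts could not be tested, and 3 libraries a group limit the precision of the rest.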
